A study of Capra hircus with 27 samples.

Results

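Messenger RNA levels were compared in heart, lung and skeletal muscle of goats from 3 populations, and the genes described here are the 100 that stood highest at 600 m in all 3 tissues at once. For each gene and tissue, the mean log2(FPKM + 1) at 600 m minus the larger of the 2000 m and 3000 m means was taken as its excess, and a gene's score was its smallest excess over the tissues. FPKM is a count of a gene's sequenced fragments, divided by the length of its transcript and by the total of fragments mapped. The 100 genes of highest score were taken from 9601 eligible genes, out of 22131 in the table. The 600 m values chose these members, so their excess is given as a description with no test. The score ran from 2.40 at rank 1 to 0.6395 at rank 100, and the next gene, the first outside the limit, had 0.6394. The median score of the eligible genes was -0.30.

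Each population was its own altitude. Goats of about 3 years of age came from Ya'an at 600 m, Zhaotong at 2000 m and A'ba at 3000 m, with 3 libraries per tissue and altitude, and no treatment or engineered allele is given in the labels. Per the study's methods, several tissues were taken from each of 3 unrelated adult females per population, which covers 600 m and 3000 m. The labels do not say which libraries came from the same goat. Altitude, population, place and any handling of a population's libraries as a group cannot be told apart in this design.

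Altitude lowers the oxygen that each breath delivers. Heart, lung and skeletal muscle take part in the oxygen supply in different ways: the lung loads oxygen into the blood, the heart drives the blood through the body, and muscle is a large consumer during work. Most genes are transcribed at different levels in these tissues, while a smaller number of housekeeping genes are used by nearly every cell. The deposited table gives annotation IDs without gene symbols, and none of them (0 matches) was found in the goat gene names at hand. The members are therefore given by their rank, their functions are not stated, and the labelled tissues were not checked against their marker genes. The members of rank 1 and 2 carry the IDs GOAT_ENSBTAP00000010366 and GOAT_ENSBTAP00000021373. In bulk tissue, fewer cells of a type and less RNA per cell cannot be told apart, which holds for every level below.

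Muscle replicates 1 and 2 at 600 m were nearly the same library: the robust SD of their differences over genes was 0.0849 on the log2 scale, against 0.193 to 0.471 in 26 other replicate pairs, so they were averaged and counted as 1 sample, leaving 26 samples. The smallest values of a library can fall on whole multiples of what 1 read is worth for a gene. Between a 600 m group and a higher group of the same tissue, 7.88 to 15.3% of low values fell on such a step, against 30.5 to 38.1% within the 600 m groups, 27.02 to 36.5% within those at 2000 m, 15.8 to 26.7% within those at 3000 m and 20.02 to 29.8% between 2000 m and 3000 m. The share of genes above 0.5 FPKM in heart was 52.8 to 53.6% at 600 m, below the 54.9 to 56.8% of the higher altitudes. In lung it was 60.48 to 61.85% against 61.89 to 63.07%, and in muscle 51.94 to 52.03% against 52.50 to 54.01%, so that the 600 m libraries were the lower ones in each tissue. The part of either difference in the members' levels was not tested.

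The median member was about 1 log2 unit higher at 600 m than at either higher altitude in heart and lung, and more in muscle. The median over the members of 600 m minus 2000 m was 1.04 in heart, 1.06 in lung and 1.47 in muscle on the log2(FPKM + 1) scale, and that of 600 m minus 3000 m was 1.04, 1.11 and 1.41. The levels themselves are given next, as medians over the members in which the middle gene is not the same at each altitude. In heart the median member was at 38.0 FPKM at 600 m, 12.02 at 2000 m and 10.8 at 3000 m. In lung the medians were 62.5, 20.9 and 19.3 FPKM. In muscle they were 49.1, 9.31 and 13.2 FPKM. The median excess on the log2 scale was 0.91 for heart (range 0.65 to 2.40), 0.95 for lung (0.64 to 3.34) and 1.33 for muscle (0.64 to 4.19), where the eligible genes had medians of -0.17, 0.03 and 0.03. An excess of at least 1, which is a doubling of FPKM + 1, was reached by 41 members in heart, by 45 members in lung and by 70 members in muscle. Heart was the tissue that set the limit for most: the smallest of a member's 3 excesses was that of heart for 50 members, of lung for 30 and of muscle for 20. The largest was that of muscle for 59. The filter on low levels bore little on the choice, since 99 of the 100 members passed it in each tissue without the 600 m samples, and 85 were above 0.5 FPKM in every sample.

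The members' part of all FPKM was computed per sample, a quantity that a few abundant members can lead. In heart it was 1.73% ± 0.485 (SD, n = 3) at 600 m, 0.798% ± 0.0457 at 2000 m and 0.731% ± 0.0592 at 3000 m. In lung it was 2.66% ± 0.788, 1.09% ± 0.117 and 1.12% ± 0.202. In muscle it was 1.82% ± 0.512 (n = 2), 0.591% ± 0.0257 and 0.700% ± 0.141. No 600 m sample overlapped with a sample of the higher altitudes in any tissue, a direction fixed by the choice of the members. The SD at 600 m was the largest of the 3 altitudes in each tissue.

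**Figure D1:**
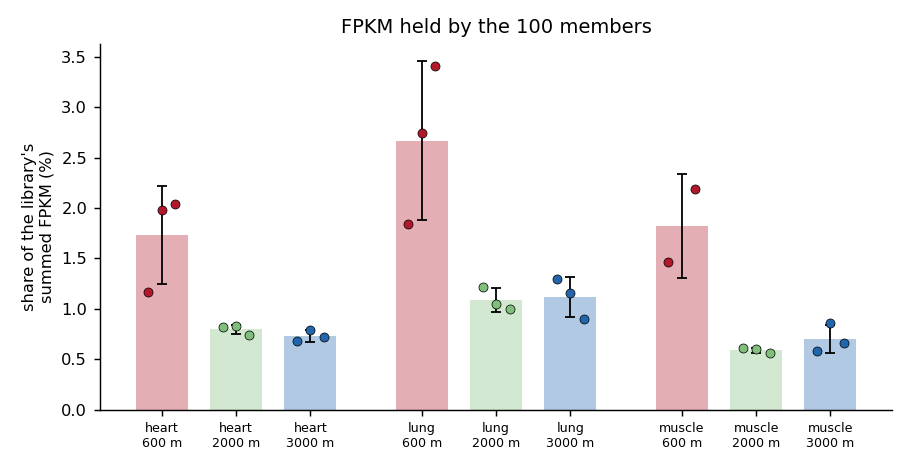
Share of all FPKM (percent, y axis) taken by the 100 members in each of the 26 samples, by tissue and altitude (x axis), with each group's mean and SD. The 600 m samples of heart lie at 1.17% or above and the highest sample of the other altitudes at 0.826%.

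The gene of rank 1 showed by how much the 600 m samples could differ among themselves. In heart its FPKM at 600 m was 2.92, 87.9 and 355 in replicates 1, 2 and 3, against 9.79, 12.4 and 4.89 at 2000 m and 8.48, 1.61 and 4.03 at 3000 m. Replicate 1 at 600 m was therefore within the range of the higher altitudes, and replicates 2 and 3 were above all of it. In lung the 600 m values were 21.6, 318 and 627 FPKM, against 37.6, 21.2 and 10.4 at 2000 m and 33.0, 16.0 and 17.0 at 3000 m. In muscle they were 15.8 and 15.6 in the near-identical libraries and 113 in replicate 3, against 4.24, 1.80 and 6.91 at 2000 m and 3.28, 1.86 and 3.21 at 3000 m. Only in muscle did all 600 m libraries stand clear of the other altitudes. The heart mean of 149 ± 184 FPKM (SD, n = 3) at 600 m had an SD larger than itself, while the means at 2000 m and 3000 m were 9.02 ± 3.81 and 4.71 ± 3.49.

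The gene of rank 2 moved with it sample by sample. Its heart values at 600 m were 3.17, 84.3 and 246 FPKM, against 10.6, 9.56 and 4.31 at 2000 m and 4.59, 2.53 and 2.73 at 3000 m. Its lung values at 600 m were 17.4, 333 and 688 FPKM, and those of the higher altitudes ran from 7.45 to 24.7. Its muscle values at 600 m were 12.7, 14.3 and 138 FPKM, and those of the higher altitudes ran from 1.35 to 6.12. Replicate 1 was again the low 600 m sample in heart and lung, and overlapped with the higher altitudes there. After each sample's group mean was taken off, the correlation of rank 2 with rank 1 over the 26 samples was 0.98. The wide spread at 600 m weighs most in it, and it was 0.99 over the 8 samples at 600 m and 0.86 over the 18 at the higher altitudes.

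**Figure D2:**
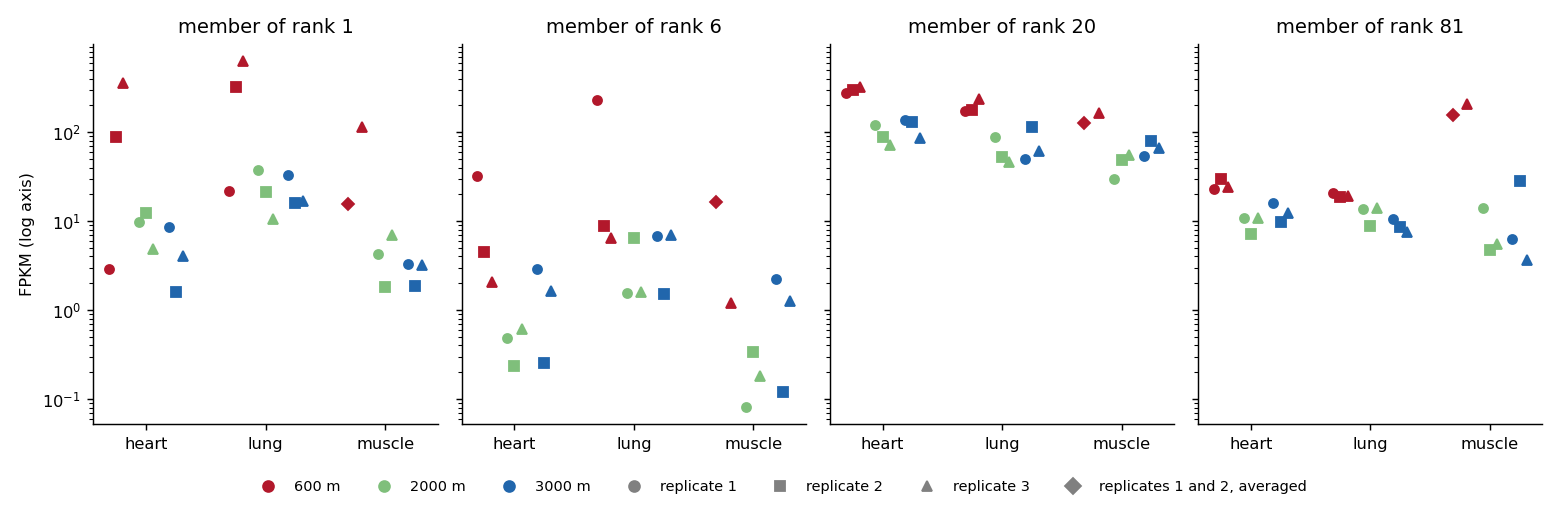
FPKM on a log axis (y) in every library of each tissue and altitude (x) for the members of rank 1, 6, 20 and 81. At rank 1 the 600 m libraries spread from 2.92 to 355 FPKM in heart, and at rank 20 they lie together at 276 to 324 FPKM.

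The likeness to rank 1 divided the members. A set of 26 genes, rank 1 and 25 others, had a correlation of at least 0.8 with rank 1 in these within-group deviations, and it held 15 of the first 20 ranks. The median correlation with rank 1 was 0.57 over the members and 0.18 over the eligible genes, and 80 of the 9501 eligible genes outside the members also reached 0.8. The correlations share libraries and depth, lean on the wide spread at 600 m and are given as a description: for the 25 others of the set, the median was 0.99 at 600 m and 0.75 at the higher altitudes. In heart, the median of the 26 genes in 600 m replicate 1 was 0.76 below the larger of the 2000 m and 3000 m means on the log2 scale, a signed value of -0.76, with 24 of the 26 not above that mean. The same genes were 1.90 and 2.73 above it in replicates 2 and 3. In lung, replicate 1 was level with the higher altitudes at a median of 0.05, with 9 of the 26 not above, and replicates 2 and 3 were at 2.44 and 2.96. In muscle the averaged sample was at 0.67 and replicate 3 at 2.50. The place of these genes among the highest at 600 m in heart and lung thus came from replicates 2 and 3. This order of the replicates is in part built into the set, which was defined by likeness to rank 1 in the same deviations. Of the 26 genes, 25 had their highest tissue mean in lung.

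The co-variation was then described apart at 600 m and at the higher altitudes. The rule used the group means of all these samples, which the deviations leave out, but the members' choice is not independent of them. Of the members other than rank 1, 33 had a correlation of at least 0.95 with it over the 8 samples at 600 m alone. Over the 18 samples at 2000 m and 3000 m, these 33 had a median correlation with rank 1 of 0.66 (interquartile range 0.23 to 0.79), and 20 of them reached 0.5. The other 66 members had a median of -0.13 there, with 3 at 0.5 or more. Among the eligible genes outside the members, 334 reached 0.95 at 600 m, and their median at the higher altitudes was -0.11, with 19 at 0.5 or more. The median at the higher altitudes was thus above 0 for the members that varied with rank 1 at 600 m, and slightly below 0 for the other members and for the other genes that varied with it at 600 m.

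A second set of 43 members was separate from the higher altitudes in every sample. In these, each 600 m sample was above each 2000 m and 3000 m sample of its tissue, in heart, lung and muscle alike, which was so for 3.12% of eligible genes. Per tissue, 56 members were free of overlap in heart, where 8.68% of eligible genes were, 58 in lung (17.7%) and 83 in muscle (18.1%). The rule favours genes of this kind, so nothing is read from these counts against the background. This set and that like rank 1 were both defined on these samples, so their contrast in spread is in part built in. The 43 genes had smaller but more even excesses than those like rank 1, with a median of 0.85 for heart, 0.82 for lung and 1.30 for muscle, and median SDs at 600 m of 0.33, 0.26 and 0.27 against 1.84, 1.59 and 1.24. Even in this set, replicate 1 was the lowest in the median: heart replicates 1, 2 and 3 were 0.48, 0.95 and 1.06 above the larger mean of the higher altitudes, and lung replicates 0.60, 0.89 and 1.01. Only 3 of the first 20 ranks were in this set.

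The member of rank 20 had the widest clear gap over the tissues. Its heart values were 276, 300 and 324 FPKM at 600 m, against 119, 88.3 and 72.4 at 2000 m and 137, 131 and 86.4 at 3000 m. Its lung values were 172, 176 and 239 FPKM, against 87.2, 53.2 and 46.1 and then 49.7, 115 and 61.9. Its muscle values were 141, 111 and 166 FPKM, against 29.6, 49.1 and 55.5 and then 53.4, 78.6 and 65.6. The lowest 600 m sample of each tissue exceeded the highest other sample by at least 0.58 on the log2 scale. This gap takes muscle replicates 1 and 2 at 600 m as their average of 126 FPKM. The member of rank 9 behaved likewise, with heart at 13.1, 36.6 and 28.7 FPKM at 600 m and at most 8.69 elsewhere, lung at 45.6, 81.7 and 55.9 FPKM and at most 24.4 elsewhere, and muscle at 68.3, 65.0 and 44.5 FPKM and at most 11.8 elsewhere. Its replicate order was not the same in the 3 tissues.

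The largest single excess was that of the member of rank 81 in muscle, at 4.19. Its muscle values were 157, 158 and 207 FPKM at 600 m, against 14.0, 4.76 and 5.49 at 2000 m and 6.23, 28.2 and 3.65 at 3000 m. In heart it was at 22.8, 29.5 and 24.4 FPKM, against 10.8, 7.12 and 10.7 and then 16.1, 9.86 and 12.2. In lung it was at 20.7, 18.8 and 19.4 FPKM, against 13.5, 8.81 and 14.0 and then 10.6, 8.61 and 7.49. The 600 m samples were the highest in each tissue, by a small margin in heart and lung and a wide one in muscle, and its low rank came from the smallest excess.

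The remaining 31 members were neither like rank 1 nor free of overlap in every tissue. Their median excess was 0.85 in heart, 0.93 in lung and 1.30 in muscle, and in heart replicate 1 at 600 m 11 of the 31 were not above the larger mean of the higher altitudes. The member of rank 6 ran opposite to rank 1 at 600 m, with a correlation of -0.94 there, 0.38 at the higher altitudes and -0.73 over all samples. Its heart values at 600 m were 32.4, 4.44 and 2.09 FPKM, so that replicate 1 was the highest, against 0.479, 0.233 and 0.610 at 2000 m and 2.89, 0.253 and 1.65 at 3000 m. Its lung values at 600 m were 229, 8.74 and 6.48 FPKM, and its muscle values 15.7, 16.9 and 1.20. The higher altitudes ran from 1.52 to 6.95 FPKM in lung and from 0.0809 to 2.22 in muscle. Over the members, 7 had a correlation of 0 or below with rank 1. The member of rank 83 was listed at 0 in muscle replicate 2 at 3000 m and at 214 and 267 FPKM in replicates 1 and 3, and its muscle excess of 0.91 was 0.57 without that library, under the limit of the rule. In all, 6 members were listed at 0 in at least 1 library.

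**Figure D3:**
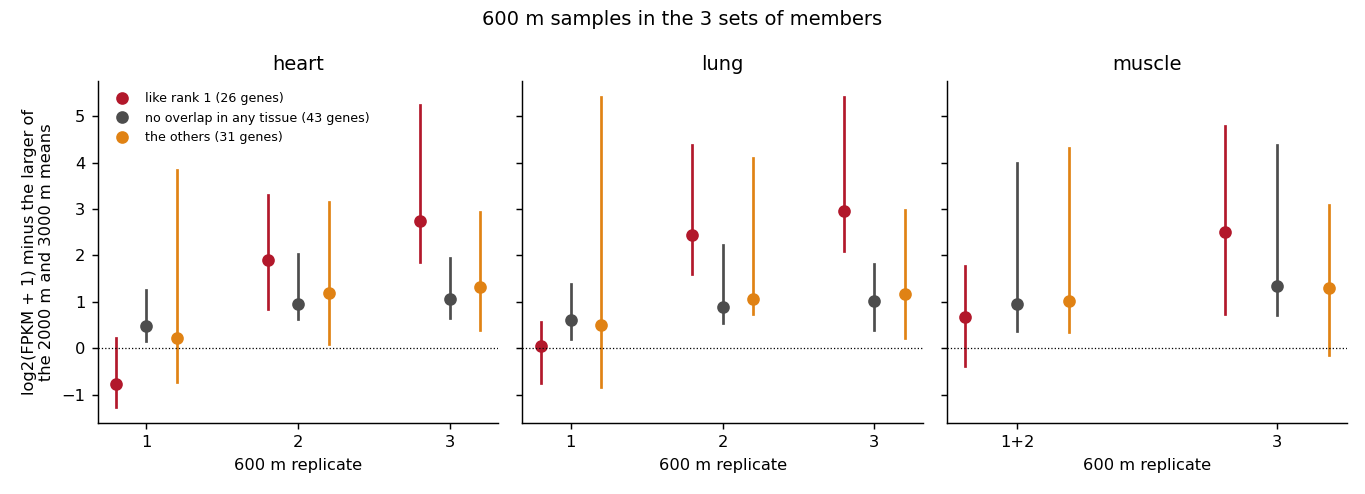
Median over each set of members (26 like rank 1, 43 without overlap in any tissue, 31 others) of log2(FPKM + 1) minus the larger of the 2000 m and 3000 m means (y axis), for each 600 m sample of each tissue (x axis). The genes like rank 1 lie at -0.76 in heart replicate 1 and at 2.73 in heart replicate 3.

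Replicate 1 at 600 m was low across the members as a whole. It was the lowest of the 600 m samples for 93 members in heart, for 84 in lung and for 80 in both, against 37.0% of eligible genes in both. Replicate 3 was the highest in both tissues for 58 members, against 18.3%. The mean deviation of the members from the group mean was -0.92, 0.30 and 0.62 in heart replicates 1, 2 and 3 and -0.73, 0.27 and 0.46 in lung, where the eligible genes had -0.14, 0.07 and 0.07 and then -0.06, 0.06 and 0.00. In muscle, replicate 3 was above the averaged sample for 77 members, against 64.6% of eligible genes. The median SD of the members in heart was 0.57 at 600 m, 0.21 at 2000 m and 0.20 at 3000 m, and for eligible genes 0.22, 0.16 and 0.17. In lung the members had 0.44, 0.30 and 0.24 in the same order, and the eligible genes 0.20, 0.20 and 0.22. In muscle the members had 0.43, 0.31 and 0.32, and the eligible genes 0.20, 0.23 and 0.23. The spread of the members was thus above that of the eligible genes at each altitude. It was most so at 600 m, the altitude at which they were chosen to be high.

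**Figure D4:**
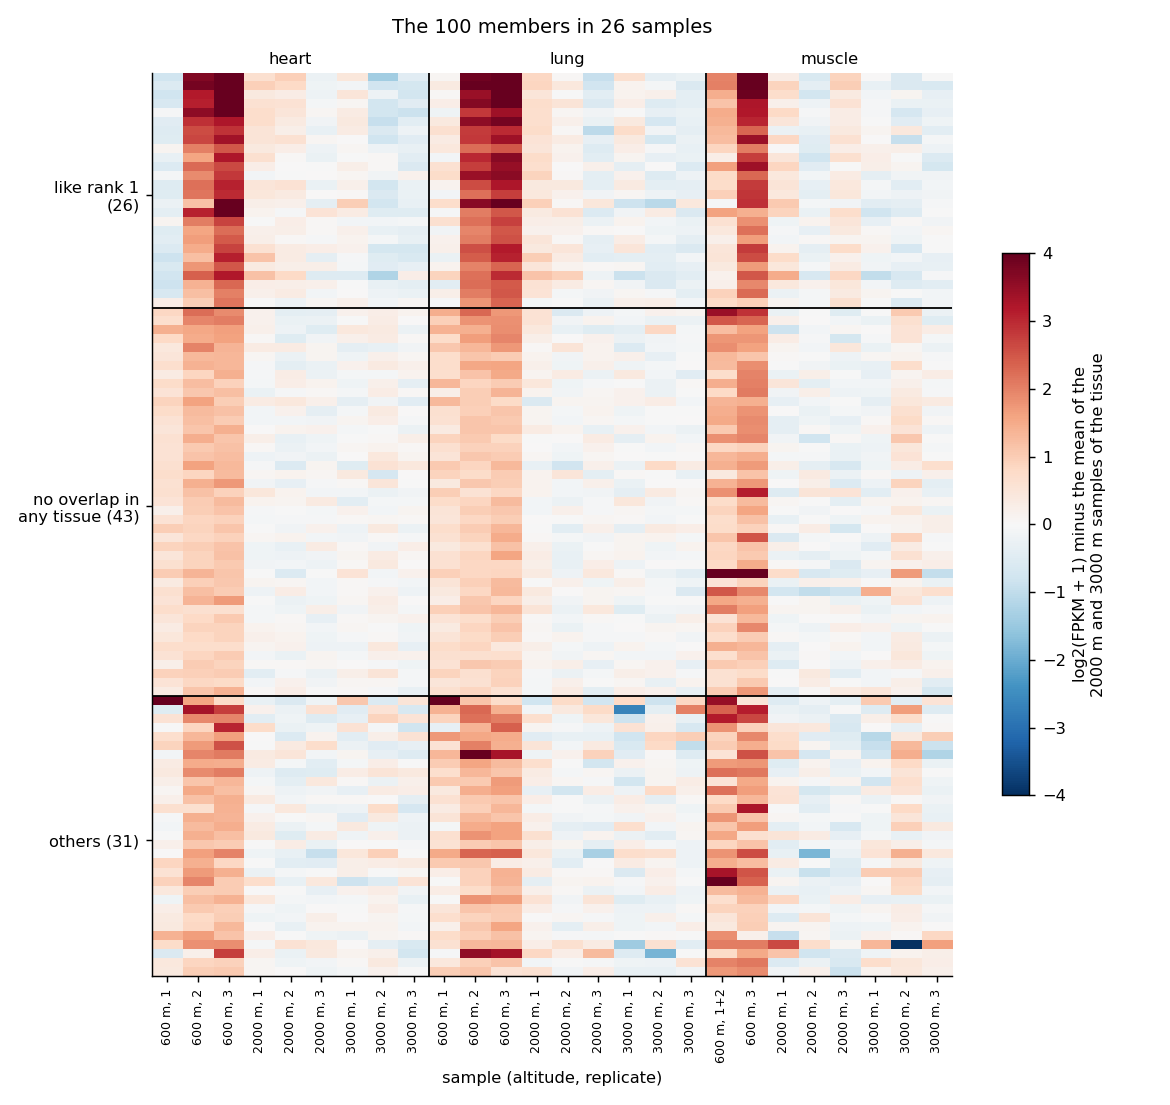
Each member's log2(FPKM + 1) minus the mean of the 2000 m and 3000 m samples of the tissue (colour), in all 26 samples (x axis). Colour is limited to 4 either way. The rows (y axis) are grouped as the genes like rank 1, those without overlap in any tissue and the others, each in order of score. Heart and lung replicate 1 at 600 m are pale or blue for most of the genes like rank 1, where replicates 2 and 3 are red.

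The choice was then repeated without the heart and lung 600 m samples of 1 number, so that these could be read as values the choice had not used. The 2000 m and 3000 m samples they are set against did take part in the choice, which favours genes that are low there. The counts below are therefore raised in part by the choice. Without both the heart and the lung sample of 600 m replicate 1, 71 members stayed among the first 100. Of the 100 genes then chosen, 38 were above every 2000 m and 3000 m sample in the left-out heart sample, where 12.9% of eligible genes were, and 52 were in the left-out lung sample (27.6%). Relative to the larger mean of the higher altitudes, their median was -0.01 in that heart sample and 0.33 in that lung sample, where the eligible genes had -0.32 and -0.02. Without replicate 2, 80 members stayed, and 97 of the chosen genes were above every other sample in the left-out heart (26.9% of eligible genes) and 97 in the left-out lung (39.4%), with medians of 1.19 and 1.07. Without replicate 3, 75 members stayed, with 96 in heart (28.4%) and 92 in lung (37.0%), and medians of 1.13 and 1.10. The eligible genes had medians of -0.10 and 0.10 in replicate 2 and of -0.09 and 0.03 in replicate 3. The median gene chosen on the other samples was thus at the level of the higher altitudes in heart replicate 1, a library in which the eligible genes were lower, and above it in replicates 2 and 3 of both tissues. All muscle samples took part in each of these choices.

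A tissue was held out in turn to test the 600 m difference on values that the ranking had not used. The 100 genes of highest score in 2 tissues were tested in the remaining one with limma, a linear model with moderated variances, as the 600 m mean minus the mean of the 2000 m and 3000 m groups, two-sided, with Benjamini-Hochberg adjustment over all genes tested. The study's methods describe several tissues of the same females at 600 m and 3000 m. The tested tissue there measures again the animals that chose the list. The filter on levels also used all tissues, so the lists are not independent of the tested tissue. In heart, 42 of the 100 genes chosen on lung and muscle were called higher at 600 m at an adjusted p of 0.05 or less, where 7.60% of 12363 tested genes and 8.74% of eligible genes were, and 0 were called lower. Their median log2 difference was 0.92 (-0.98 to 2.88), 95 of the 100 were above 0, and 55 were members. In lung, 61 of the 100 genes chosen on heart and muscle were called higher, against 8.36% of 13965 genes and 10.2% of eligible genes, with a median of 0.96 (-0.02 to 3.51), 99 above 0, and 75 of them members. In muscle, 55 of the 100 genes chosen on heart and lung were called higher, against 4.57% of 11920 genes and 4.68% of eligible genes, with a median of 1.39 (-0.28 to 3.65), 97 above 0, and 78 of them members. The medians of all tested genes were -0.11 in heart, 0.06 in lung and 0.10 in muscle. Each fit took 1 spread for the 3 altitudes, whereas the members varied more at 600 m. In heart their median SD was 0.57 at 600 m, 0.21 at 2000 m and 0.20 at 3000 m. For the genes like rank 1 the median SDs at 600 m were 1.84 in heart, 1.59 in lung and 1.24 in muscle. The SEs and adjusted p-values of such genes can therefore be too small. Rank 1 itself was on the heart list with a log2 difference of 2.86 (SE 1.14) and a limma adjusted p of 0.0954, and rank 2 with 2.88 (SE 1.02) and 0.0664, so that neither passed. In lung the limma adjusted p was 0.0586 for rank 1, at a log2 difference of 2.94 (SE 0.90), and 0.0436 for rank 2, at 3.51 (SE 0.95), and in muscle both passed, with 3.36 (SE 0.63) and 3.65 (SE 0.70) and adjusted p-values of 0.0221 and 0.0238. Other scalings of the libraries gave 43 and 41 calls for the heart list, 53 and 43 for lung and 45 and 43 for muscle, for median-of-ratios scaling and quantile normalization in turn. The shares of all genes called higher were then 12.6% and 11.2% for heart, 5.84% and 4.99% for lung, and 3.23% and 2.72% for muscle. Over all genes called in either direction, the share higher at 600 m was 30.9% in heart, 64.8% in lung and 65.7% in muscle as deposited, and 47.9%, 46.5% and 57.7% with median-of-ratios scaling, and 51.3%, 44.2% and 50.9% with quantile normalization. Relative to the median of all tested genes, which these scalings brought to between -0.03 and 0.01, the heart list stood at 1.03 as deposited and 1.21 and 1.06 when rescaled, the lung list at 0.91 and then 0.98 and 1.17, and the muscle list at 1.29 and then 1.36 and 1.13.

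The number of calls rested on single libraries. The share of all genes called higher moved with it and is given beside each count. On the heart list, 86 genes were called once the 600 m sample numbered 1 was removed (12.9% of all genes), and 19 once the sample numbered 2 (2.65%) or the sample numbered 3 (2.57%) was removed instead. On the lung list, 74 were called when the 600 m sample numbered 1 was removed (11.2%). Limma called 0 of the lung list when the 600 m sample numbered 2, the 600 m sample numbered 3 or the 2000 m sample numbered 2 was removed (0.0286%, 0.0286% and 0.0502%), although 70, 73 and 87 genes had an unadjusted p under 0.05, as did 87 of the list and 20.2% of all tested genes with every sample kept. Removal of the 2000 m sample numbered 3 left 40 calls in lung (4.20%). On the muscle list, 8 genes were called when the 600 m sample numbered 3 was removed (0.554%), which left a single averaged sample at 600 m that was assumed to vary like the other groups. Removal of the muscle sample numbered 2 at 2000 m left 34 calls (1.63%), and removal of those numbered 1 or 3 at 3000 m left 33 (1.65%) or 32 (1.54%). Over all samples left out in turn, the median log2 difference ranged from 0.64 to 1.22 for the heart list, from 0.86 to 1.12 for the lung list and from 0.86 to 1.64 for the muscle list.

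**Figure D5:**
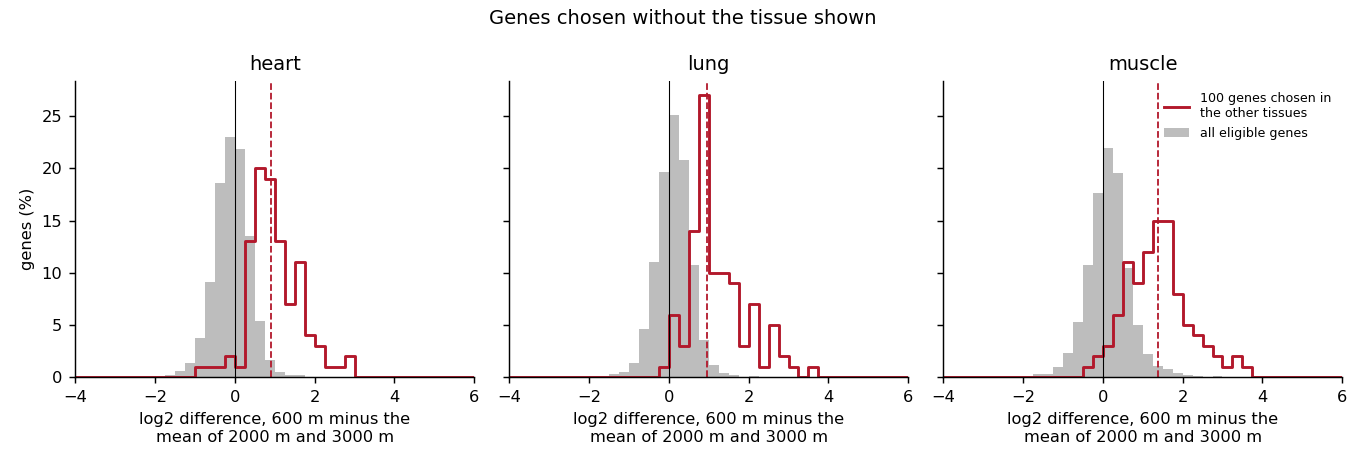
Log2 difference of 600 m from the mean of the 2000 m and 3000 m groups (x axis) in each tissue, as the percent of genes (y axis) for the 100 genes chosen on the other tissues and for all 9601 eligible genes. The medians of the chosen genes are 0.92 in heart, 0.96 in lung and 1.39 in muscle.

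Between the populations at 2000 m and 3000 m, no member was called different in any tissue. The rule took the larger of the 2000 m and 3000 m means, which disfavours a gene that is high in one of these groups and so favours a small difference between them. The counts are therefore given as a description of the members, and nothing is read from them. Limma called 0 of 100 members in heart, 0 in lung and 0 in muscle, where 0.00809%, 0.00% and 0.00839% of all genes tested were called. At an unadjusted p under 0.05 the members numbered 4 in heart, 2 in lung and 10 in muscle, against 14.5%, 5.78% and 8.82% of all genes. The members' median log2 difference, 3000 m minus 2000 m, was -0.05 in heart (-1.05 to 0.94), -0.09 in lung (-1.58 to 0.75) and 0.08 in muscle (-2.30 to 1.70). The smallest adjusted p of a member was 0.203, 0.850 and 0.167. This last was that of the member of rank 85 in muscle, which was at 15.0, 12.6 and 14.1 FPKM at 2000 m and 72.6, 35.4 and 41.5 at 3000 m, a log2 difference of 1.70 (SE 0.28), and at 147, 149 and 100.6 FPKM at 600 m. Its groups did not overlap, and the muscle of this gene followed no order of altitude, with 2000 m lowest and 600 m highest. The 3000 m mean was below the 2000 m mean in all 3 tissues for 31 members and above it in all 3 for 13, against 18.6% and 13.9% of eligible genes. A test of whether the 3000 m minus 2000 m difference itself differed between tissues called 0 members and 0.00% of all genes in each of the 3 pairs. At an unadjusted p under 0.05 there were 4 members for heart against lung, 4 for heart against muscle and 7 for lung against muscle, beside 6.60%, 8.82% and 6.74% of all genes. The same limit holds for these counts.

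Over altitudes, the members' highest tissue was lung for 58, heart for 21 and muscle for 21, and in the eligible genes it was lung for 65.3%, heart for 20.4% and muscle for 14.2%. By limma over all 26 samples, taken as independent, 72 members differed between heart and lung, 17 higher in heart and 55 in lung, against 81.3% of all genes (20.6% and 60.7%). Between heart and muscle 41 differed, 22 higher in heart and 19 in muscle, against 61.8% (44.8% and 17.0%). Between lung and muscle 82 differed, 58 higher in lung and 24 in muscle, against 83.8% (65.7% and 18.1%). These directions depended on how libraries were scaled to each other. With median-of-ratios scaling the splits were 37 heart and 33 lung, 10 heart and 29 muscle, and 28 lung and 48 muscle, where all genes gave 37.1% and 37.6%, 31.3% and 30.5%, and 38.6% and 40.6%. With quantile normalization they were 26 and 38, 10 and 27, and 40 and 32, where all genes gave 38.4% and 37.1%, 28.5% and 29.0%, and 37.2% and 41.8%. The median difference of the eligible genes, heart minus lung, went from -0.50 as deposited to 0.03 and 0.06, and that of the members from -0.66 to -0.11 and -0.23. The larger count of heart against muscle turned under both scalings, and that of lung against muscle and heart against lung turned under median-of-ratios scaling. The excess at 600 m kept its direction, an outcome that the choice of the members for a high excess favours in advance. All 100 members had a mean above both higher altitudes in each tissue under each scaling. The heart median was 0.91, 1.00 or 0.92 as deposited, with median-of-ratios scaling or with quantile normalization. In the same order, the lung median was 0.95, 0.83 or 0.91 and the muscle median 1.33, 1.23 or 1.11.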

How the data were processed

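Strand-specific RNA libraries were made from heart, lung and skeletal muscle at 3 altitudes (27 libraries). The authors aligned reads to the goat genome (CHIR_1.0) and estimated FPKM. The submitters' processing notes name TopHat2 2.0.11 and Cufflinks 2.2.1. The methods describe the 600 m and 3000 m animals, and the handling of the 2000 m libraries is not given in the sources used here. The deposited values are log2(FPKM + 1), which hold no read counts, so depth is unknown and no counting interval is given. The log2 was undone, and 1 subtracted, to return to FPKM.

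Genes were eligible if their ID started with GOAT_ (17671 genes), their mean FPKM was above 0.5 in each tissue and their tissue means lay within 3 on the log2 scale, and 1 ID was left out by the rule. Muscle 600 m replicates 1 and 2 were averaged on the FPKM scale. The members, sets and lists were chosen with earlier results of these data known. By the rule for named genes, the 2 members of highest score are given by ID and all others by rank. Those of rank 6, 9, 20, 81, 83 and 85 were picked after their values were seen. Planned lists of pathway genes and cell type markers were not used, since 0 IDs matched a symbol, and no sequence is shown for the same reason.

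Tests used limma 3.58.1 in R 4.3.3 (linear fit, variance trend, two-sided, Benjamini-Hochberg adjustment, threshold 0.05) on log2(FPKM + 1) with a pseudocount of 1, after a filter at a mean above 0.5 FPKM, in place of the study's Cuffdiff. A log2 difference on this scale understates that of low genes. The fits were tested on simulated data. Labels do not tie libraries to animals, so p-values measure the spread between these samples, which may be technical. Whether replicate numbers pair samples was checked by the correlation of deviations from group means over genes. Heart and lung samples of the same number had correlations of 0.158 to 0.521, and those of different numbers -0.451 to 0.181. The study's methods describe several tissues of 3 females per population. Heart and lung samples of 1 number were therefore left out together in some choices of genes. The main tests between tissues did not use this pairing and took all samples as independent. The numbers did not clearly pair muscle with heart (-0.284 to 0.324) or with lung (-0.417 to 0.307). The block fit between tissues nevertheless used them for muscle too.

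Alternatives were another pseudocount, other filters and scalings, a replicate block, the averaging step and each sample left out.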

Additional observations from a re-analysis of the deposited data

How the results depend on the processing

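Of the members, 65 stayed among the first 100 genes after quantile normalization, 68 after median-of-ratios scaling, 84 with a pseudocount of 0.1, and 69 to 97 with any 1 sample left out. With the heart and lung 600 m samples of 1 number left out together, an alternative chosen after seeing the data, the calls of the held-out lists were 89, 18 and 19 in heart for numbers 1, 2 and 3 (12.9%, 2.65% and 2.57% of all genes), and 79, 0 and 0 in lung (11.2%, 0.0286% and 0.0286%). With 1 sample left out they were 19 to 86 in heart, 0 to 74 in lung and 8 to 61 in muscle. Without the filter on low values, 13 genes were called in muscle (0.647% of 16857 genes). The cause was not tested for any of these. Heart against muscle gave 63 members without the heart and lung 600 m samples numbered 1, and 30 to 56 with 1 sample left out. With 1 sample left out, heart against lung gave 68 to 76 and lung against muscle 76 to 82. The shares of all genes were not computed for these tissue counts, so nothing is read from them about the members.

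With the replicate number as a block, the held-out calls were 34 in heart and 42 in lung, and 3000 m against 2000 m gave 0 in each tissue. Where muscle entered, the block was fitted with the near-identical 600 m libraries kept apart, so 2 choices changed at once: the held-out calls in muscle were 61, and the members called were 78 for heart against lung, 61 for heart against muscle and 85 for lung against muscle. With those libraries apart and no block, these counts were 68 (10.3% of all genes), 72, 42 and 82. Shares of all genes called were not computed for the block fits, nor for the tissue pairs with those libraries apart. Nothing is read from these counts about the members. Samples of different altitudes come from different goats, and the numbers did not pair them. Correlations at the same number were -0.177 to 0.034 for 600 m and 2000 m and -0.207 to 0.116 for 600 m and 3000 m. For 2000 m and 3000 m they were -0.132 to 0.303. The block within a tissue thus stands for no shared animal, and no support is drawn from its counts. The 3000 m against 2000 m counts were 0 under every alternative run. The unknown depth and the 3 samples or fewer per group limit how small a difference could be called.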
